A study of Mus musculus with 6 samples.

Results

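The Krüppel-like factors (KLFs) are DNA-binding proteins with C2H2 zinc fingers at their C-terminal end. The genes described here are the 8 family members Klf2, Klf3, Klf4, Klf5, Klf6, Klf9, Klf10 and Klf13, chosen by symbol with earlier results of these data known, out of 41388 genes in the count data. Each of the 8 passed the filter on low counts, by which 12192 genes with more than 1 CPM (counts scaled to the depth of the sample) in at least 3 samples were kept. RNA-seq was performed on 6 samples of mammary tumor cells from 12-week-old female MMTV-PyMT mice (FVB/N-TgN(MMTVPyVT)634Mul/J), in which the mouse mammary tumor virus promoter drives the polyoma middle T oncogene. The 3 samples of tumor initiating cells (TICs) were CD24+CD90+CD45- cells isolated by fluorescence-activated cell sorting. For comparison, non-CD24+CD90+ tumor cells were sorted in 3 samples, here called control tumor cells: CD45- cells of the same tumor type that lacked one or both of these surface markers, although the series description names them as negative for both. No treatment was applied to either group, all samples carried the transgene, and the tumors were enzymatically dissociated before sorting. As 4 cell sorts had been pooled for each sample, the p-values below measure the spread between pools. The sources used here do not say outright whether TICs and control tumor cells were sorted from the same mice. The total number of mice given in the paper would allow it, and the tests below ignored any such pairing.

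KLF proteins bind GC-rich sequences and CACCC elements in promoters and enhancers through their zinc fingers, while their divergent N-terminal parts recruit coactivators or corepressors. KLF4 is one of the factors used to reprogram somatic cells to pluripotency and is also known from differentiating epithelia and from endothelium, where KLF2 shares many of its target genes. KLF5 is mostly known from proliferating epithelial cells, in which it often acts in opposition to KLF4. The comparison places Klf4 among its relatives in a cell population that was sorted by surface markers and for which the paper reports a high capacity to initiate tumors.

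The total count per sample ranged from 6781239 to 9100552, and 3 counts corresponded to 0.33 to 0.44 CPM. In a principal component analysis TIC replicate 3 stood apart from the other samples along the first component (31% of the variance), with a score of 165 against scores from -56.9 to -5.51. TIC replicates 1 and 2, at -23.4 and -5.51, also scored above all control samples, which ranged from -56.9 to -34.7. Along the second component (22.7%) TIC replicate 2 stood apart, with a score of -136 against scores from -8.66 to 66.4. Thy1, the gene of CD90, had 90.7, 207 and 70.3 CPM in TICs and 75.9, 56.7 and 21.6 CPM in control tumor cells, so that the groups overlapped. Cd24a had 440, 315 and 356 CPM in TICs and 402, 405 and 602 CPM in control tumor cells and overlapped as well. Of the genes that define luminal epithelium, Epcam, Krt8 and Krt18 were present in all 6 samples. The leukocyte gene Ptprc, which encodes CD45, had 33 counts in control replicate 1 and 0 in the other 5 samples. Across all genes 1.55% were called, that is, edgeR's exactTest gave them a Benjamini-Hochberg adjusted p-value below 0.1. Calls with higher expression in TICs made up 1.36% and calls with lower expression 0.189% of the 12192 genes.

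The proximal promoters of Klf4, Klf2, Klf6 and Klf9 are printed because these genes had the highest levels per length of the 8 members in both groups, as described further on. RefSeq promoters of build GRCm38.p6 were found for 6 of the 8 members. The sequences cover bases 250 to 31 before the transcription start, which keeps the 220 bases of each printed window upstream of the annotated gene, and are written 5′ to 3′ on the strand of the gene. Capitals mark matches on either strand to any of 6 motifs: the KLF element CACCC, the GC box GGGCGG, the cAMP response element TGACGTCA, the E-box CACGTG, the CArG box and the MEF2 site. Overlapping matches form 1 run of capitals. The windows lie at chr4:55532506-55532725 on the minus strand (Klf4), chr8:72318812-72319031 on the plus strand (Klf2), chr13:5861239-5861458 on the plus strand (Klf6) and chr19:23140976-23141195 on the plus strand (Klf9).
Klf4: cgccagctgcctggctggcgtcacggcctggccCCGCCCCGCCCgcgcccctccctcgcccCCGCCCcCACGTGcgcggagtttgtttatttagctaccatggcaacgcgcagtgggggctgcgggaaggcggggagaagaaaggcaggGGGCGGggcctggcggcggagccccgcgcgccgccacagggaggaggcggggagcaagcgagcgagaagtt
Klf2: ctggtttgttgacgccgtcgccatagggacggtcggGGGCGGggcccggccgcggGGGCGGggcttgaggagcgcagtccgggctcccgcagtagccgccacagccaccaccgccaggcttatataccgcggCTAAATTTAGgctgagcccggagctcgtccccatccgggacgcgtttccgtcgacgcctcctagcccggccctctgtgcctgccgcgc
Klf6: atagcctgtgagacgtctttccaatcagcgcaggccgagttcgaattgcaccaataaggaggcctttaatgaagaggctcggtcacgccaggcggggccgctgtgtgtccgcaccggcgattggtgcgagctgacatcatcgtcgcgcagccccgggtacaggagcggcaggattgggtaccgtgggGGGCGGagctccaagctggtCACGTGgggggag
Klf9: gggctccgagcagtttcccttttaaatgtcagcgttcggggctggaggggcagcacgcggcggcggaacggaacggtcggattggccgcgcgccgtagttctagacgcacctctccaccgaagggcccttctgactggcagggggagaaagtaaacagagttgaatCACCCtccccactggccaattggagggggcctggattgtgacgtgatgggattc

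The Klf4 window held 4 GC boxes, 1 E-box and no CACCC element, and 74.5% of its bases were G or C, compared with a median of 51.8% over 32851 promoters. In that background 28.5% of the windows held at least 1 GC box and 2.64% held 4 or more. The Klf2 window held 2 GC boxes and 1 MEF2 site, a sequence recognized by the factors through which ERK5 signaling is known to induce Klf2, and MEF2 sites were found in 2.60% of all windows. The Klf6 window had 1 GC box and 1 E-box, and the Klf9 window had 1 CACCC element. Among the 6 members with an entry, 5 held a GC box, 2 held a CACCC element (47.8% of all windows), 2 held the E-box (5.01%) and 1 held the MEF2 site. The window of Klf3, counted here but not printed, reaches into the annotated gene. None of the 6 held TGACGTCA (1.14%) or a CArG box (1.30%) in these windows. The matches describe letters in a short window and show no binding.

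Klf4 was the member with the largest difference between the groups, although it did not pass the threshold. The gene (ENSMUSG00000003032, chr4:55527143-55532466, minus strand) had 1436, 1489 and 967 counts in control tumor cells replicates 1 to 3 and 1596, 3570 and 4293 counts in TIC replicates 1 to 3. After normalization by the trimmed mean of M-values (TMM), its level was 210, 169 and 138 CPM in control tumor cells and 175, 416 and 566 CPM in TICs. TIC replicates 2 and 3 were above every control sample, whereas TIC replicate 1 lay within their range, so that the groups overlapped. The means were 386 ± 197 CPM in TICs and 172 ± 35.7 CPM in control tumor cells (SD, n = 3), with a fold change of 2.24. The log2 fold change was 1.16 ± 0.39 (SE, 95% interval 0.41 to 1.92), with an adjusted p-value of 0.149 in edgeR's exactTest (unadjusted p = 0.003). An exact two-sided permutation test of the 6 values of log2(CPM + 1) gave p = 0.2, where 3 against 3 samples cannot go below 0.1.

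The call for Klf4 depended on the test, the filter and the samples. DESeq2 called Klf4 with a log2 fold change of 1.21 (adjusted p = 0.042), as 1 of the 2.58% of genes it called, and edgeR's quasi-likelihood test, which called 0.410% of genes, gave an adjusted p-value of 0.31. Restricting exactTest to genes with at least 10 counts in every sample gave 0.069. Without TIC replicate 1 the log2 fold change in exactTest was 1.53 (adjusted p = 0.00074), and without TIC replicate 3 it was 0.80 (adjusted p = 0.60). Klf4 therefore stayed above 0 in each of these fits, and leaving out 1 TIC pool was enough to move it across the threshold.

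**Figure D1:**
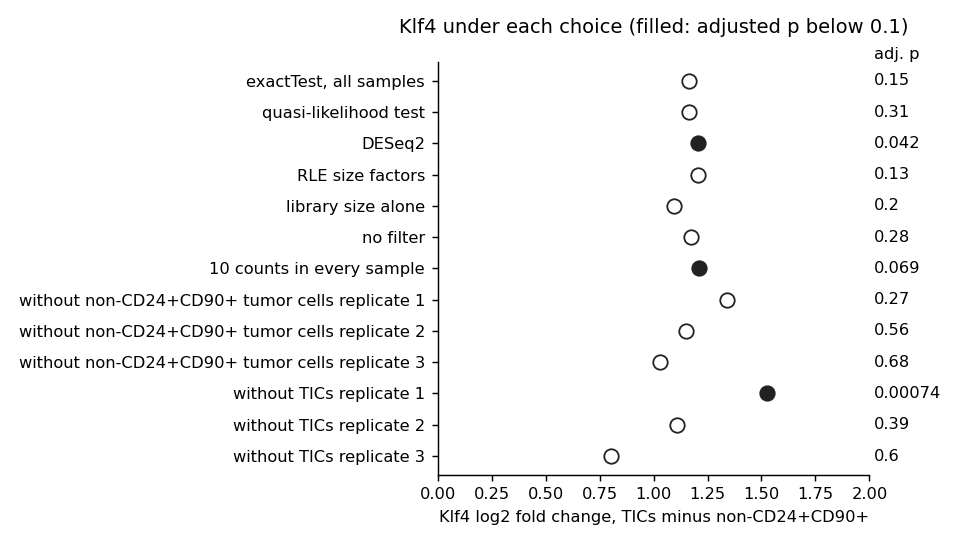
Log2 fold change of Klf4 in TICs against non-CD24+CD90+ (control) tumor cells (horizontal axis), under each test, scaling, filter and left-out sample (rows), with the adjusted p-value printed at the right. All values lie between 0.80 and 1.53, and filled points mark the 3 settings with an adjusted p-value below 0.1.

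Klf2, the closest relative of Klf4 in endothelial biology, followed a different pattern among the samples. It is located at chr8:72319033-72321656 on the plus strand. Its level was 121, 62.7 and 94.0 CPM in control tumor cells and 64.0, 79.9 and 243 CPM in TICs. Only TIC replicate 3 was high, and TIC replicates 1 and 2 lay inside the range of the other group. The log2 fold change was 0.48 ± 0.47 (SE, 95% interval -0.44 to 1.40, adjusted p = 0.999 in exactTest), and without TIC replicate 3 it turned to -0.34. The 2 relatives thus shared the highest sample, while TIC replicate 2 was high for Klf4 alone.

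Klf6, a broadly expressed member that responds to serum and injury and induces the cell cycle inhibitor p21, was the member with the most counts in the control tumor cells (chr13:5861482-5870394, plus strand). Its level was 525, 285 and 187 CPM in control tumor cells and 289, 453 and 569 CPM in TICs. Replicate 1 of the control tumor cells was nearly as high as TIC replicate 3, and the groups overlapped along most of their range. Klf6 thus differed by 0.39 ± 0.39 on the log2 scale (SE, 95% interval -0.36 to 1.15), and the groups were not separated.

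Klf5, the epithelial counterpart of Klf4 (chr14:99298691-99315036, plus strand), was the steadiest member. Its level was 70.0, 79.1 and 70.5 CPM in control tumor cells and 89.5, 82.8 and 67.2 CPM in TICs. All 6 samples were close to each other, with TIC replicate 1 the highest and TIC replicate 3 the lowest. Its mean was 79.8 ± 11.4 CPM in TICs and 73.2 ± 5.09 CPM in control tumor cells (SD, n = 3). For Klf5 the log2 fold change of 0.12 had a 95% interval from -0.58 to 0.83, which leaves room for changes of modest size in both directions.

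Klf9 and Klf13 encode closely related factors that recruit the SIN3A corepressor, and Klf9 is a well-known target of glucocorticoid and thyroid hormone receptors. Klf9 (chr19:23141226-23168134, plus strand) had 132, 129 and 73.7 CPM in control tumor cells and 79.0, 166 and 259 CPM in TICs. As for Klf4, TIC replicates 2 and 3 were above every control sample and TIC replicate 1 was inside their range. The log2 fold change of Klf9 was 0.59 ± 0.42 (SE, 95% interval -0.22 to 1.41, adjusted p = 0.913). Klf13 (chr7:63886351-63938915, minus strand) had 53.6, 45.4 and 33.2 CPM in control tumor cells and 59.5, 45.5 and 66.6 CPM in TICs. TIC replicates 1 and 3 were the highest samples for Klf13, and TIC replicate 2 lay next to replicate 2 of the other group. Its log2 fold change was 0.38 ± 0.45 (SE, 95% interval -0.50 to 1.25).

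Klf3, a repressor that acts through the corepressor CtBP, had 38.2, 14.9 and 18.5 CPM in control tumor cells and 31.5, 44.4 and 33.4 CPM in TICs (chr5:64803388-64832901, plus strand). All 3 TIC samples were above control replicates 2 and 3, and replicate 1 of that group lay among them. Its log2 fold change was 0.61 ± 0.61 (SE, 95% interval -0.58 to 1.80). Exons of Klf3 overlap those of the antisense transcript Gm20033, which had 239 counts over all 6 samples, and the strand setting of the counting is not given in the sources used here.

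Klf10, a gene induced early by TGF-beta that represses the inhibitory Smad7, was the member with the fewest counts, 71 to 210 per sample (chr15:38291463-38300706, minus strand). It had 10.4, 23.3 and 22.7 CPM in control tumor cells and 16.8, 24.5 and 9.90 CPM in TICs. The lowest sample was TIC replicate 3, followed by control replicate 1, and the groups spanned nearly the same range. Klf10 was the only member with a log2 fold change below 0, at -0.14, and its 95% interval from -1.74 to 1.46 was the widest of the 8.

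**Figure D2:**
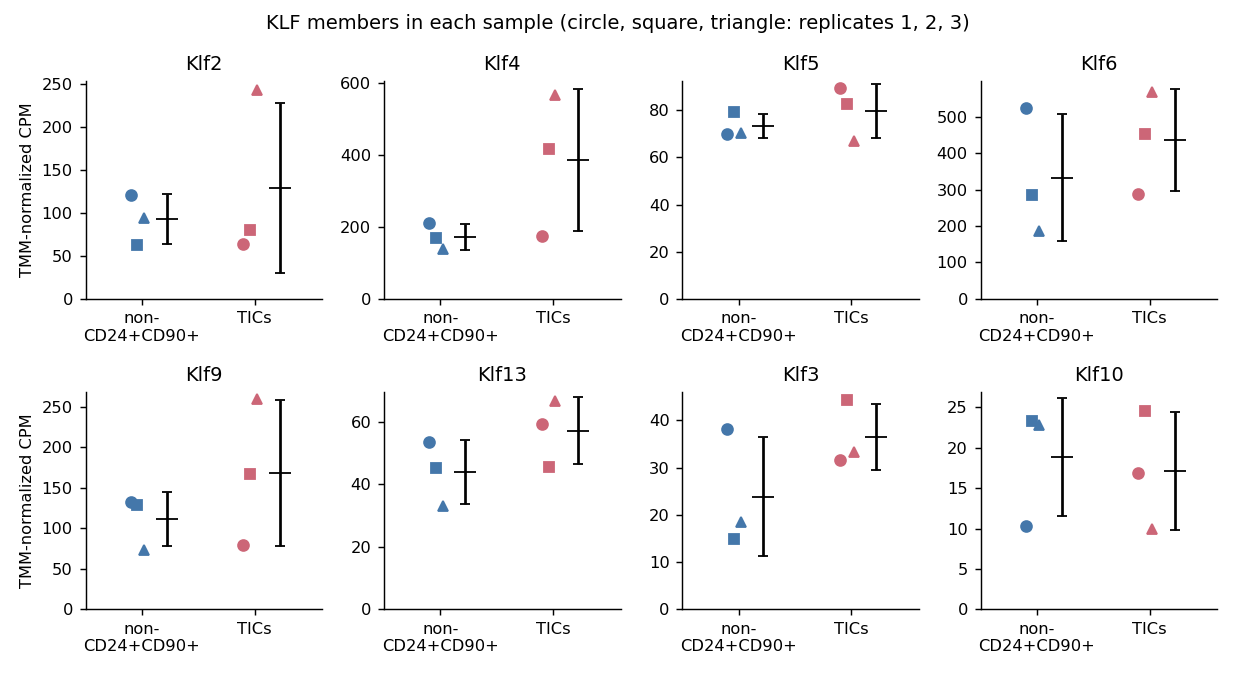
TMM-normalized CPM (vertical axes, starting at 0) of the 8 KLF members in the 3 control samples (blue) and the 3 TIC samples (red). Circles, squares and triangles are replicates 1, 2 and 3, and the bars beside them show the mean ± SD. In every panel at least 1 TIC sample lies within the range of the other group or the reverse, and TIC replicate 3 is the highest sample for Klf2, Klf4, Klf6, Klf9 and Klf13.

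As a group, the members leaned toward TICs without a single call. Of the 8 members 0 were called by exactTest, where 1.55% of all genes were called, 0 by the quasi-likelihood test and 1 by DESeq2. At an unadjusted p-value below 0.05 each of these tools gave 1 of 8 members, namely Klf4, compared with 7.85% of all genes in exactTest. Positive log2 fold changes were found for 7 of 8 members (87.5%) and 49.7% of all genes, and the median was 0.44 for the members and -0.01 for all genes. For 0 of 8 members every TIC sample lay above every other sample (7.69% of all genes), and for 0 of 8 every TIC sample lay below (7.55%). Without TIC replicate 3 the log2 fold change was above 0 for 7 of 8 members, with a median of 0.22 compared with 0.00 over 11810 genes. These were not the same 7 members, as Klf2 fell to -0.34 and Klf10 rose to 0.15.

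The members did not vary in parallel among the samples. TIC replicate 3 was the highest of the 6 samples for 5 of 8 members and for 21.9% of all genes, and it was the lowest for Klf5 and Klf10. TIC replicate 2 was the highest sample for Klf3 and Klf10. TIC replicate 1 was above every control sample for 2 members, Klf5 and Klf13, while TIC replicates 2 and 3 each were for 5 members. The corresponding shares of all genes were 27.2%, 28.4% and 30.1% for TIC replicates 1, 2 and 3. Replicate 3 of the control tumor cells was the lowest sample for Klf4, Klf6, Klf9 and Klf13.

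**Figure D3:**
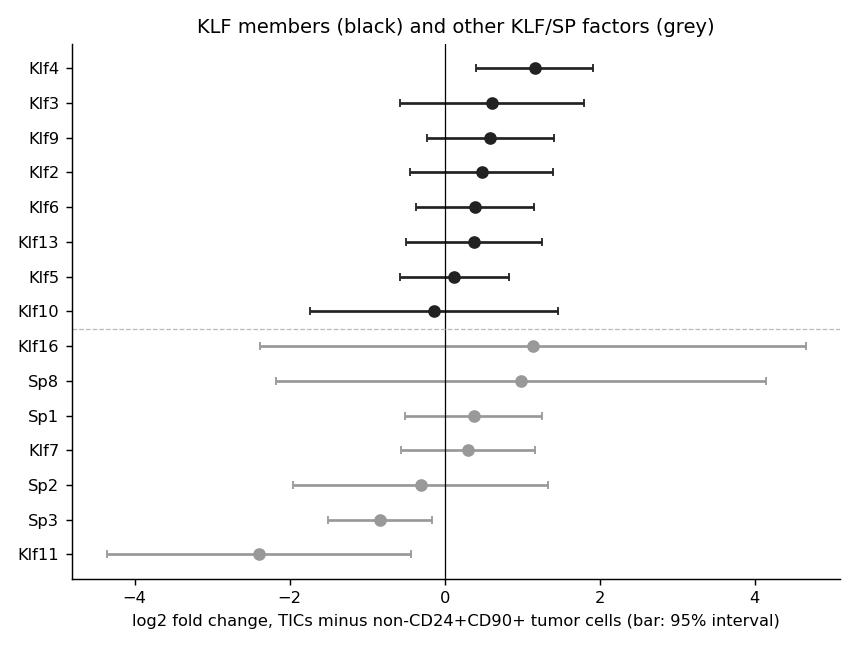
Log2 fold change of TICs against the control samples (horizontal axis) of the 8 KLF members (black) and of the 7 other KLF and SP factors that passed the filter (grey), with 95% intervals as bars. Among the members the interval of Klf4, from 0.41 to 1.92, lies above 0, and the other 7 intervals include 0. Among the other factors the intervals of Klf11 (-4.36 to -0.44) and Sp3 (-1.51 to -0.16) lie below 0.

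To compare levels between members, CPM values were divided by the length of the union of exons of each gene in kilobases (GENCODE M21, build GRCm38). On this scale the mean level in control tumor cells was 75.6 CPM per kilobase for Klf6, 56.5 for Klf4, 50.1 for Klf2, 23.2 for Klf9, 14.1 for Klf5, 5.85 for Klf13, 4.50 for Klf10 and 2.12 for Klf3. In TICs the mean level per kilobase was 127 for Klf4, 99.4 for Klf6, 69.8 for Klf2, 34.9 for Klf9, 15.3 for Klf5, 7.59 for Klf13, 4.08 for Klf10 and 3.24 for Klf3. Klf4 and Klf6 thus exchanged the first and the second place, and the order of the other 6 members was the same. The ranges of Klf4, Klf6 and Klf2 overlapped with one another in both groups, although within each single TIC sample Klf4 was above Klf2. In control tumor cells Klf2 lay above Klf9 in all samples, Klf9 above Klf5 by a narrow margin (15.3 against 15.2 at the closest) and Klf5 above Klf13. In TICs the levels of Klf5 and Klf13 were separated, as were those of Klf13 and Klf10 (6.04 against 5.86 at the closest), and the ranges of all other neighbours overlapped, although Klf2 was above Klf9 within each of the 3 TIC samples. With the length of the longest transcript in place of the union of exons, Klf3 moved above Klf10 in TICs (6.98 against 5.61) and no other place changed.

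Within single samples, Klf4 had the second highest level per kilobase in all 3 samples of control tumor cells, behind Klf6 in replicates 1 and 2 and behind Klf2 in replicate 3. It was second to Klf6 in TIC replicate 1 and first in TIC replicates 2 and 3. The summed level of the 8 members was 308, 209 and 179 CPM per kilobase in control tumor cells and 206, 349 and 528 CPM per kilobase in TICs, so that TIC replicate 1 resembled the lower samples of the other group. Klf4 contributed 22.3%, 26.5% and 25.3% of this sum in control tumor cells and 27.9%, 39.1% and 35.2% in TICs. These shares did not overlap between the groups, and they were not tested. As the shares of 1 sample add up to the whole, a larger share of Klf4 does not by itself show a higher level of Klf4.

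Ratios within samples compare Klf4 with its nearest functional relatives without regard to scaling. The Klf4 to Klf5 ratio per kilobase was 5.10, 3.64 and 3.35 in control tumor cells and 3.34, 8.58 and 14.4 in TICs. TIC replicates 2 and 3 had ratios above those of all other samples, and TIC replicate 1 had the lowest of the 6 (p = 0.4, exact permutation test). The Klf4 to Klf6 ratio was 0.575, 0.855 and 1.07 in control tumor cells and 0.875, 1.32 and 1.43 in TICs (p = 0.2, exact permutation test). The Klf4 to Klf2 ratio was 1.05, 1.63 and 0.892 in control tumor cells and 1.66, 3.16 and 1.41 in TICs (p = 0.2, exact permutation test). In all 3 ratios the groups overlapped.

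**Figure D4:**
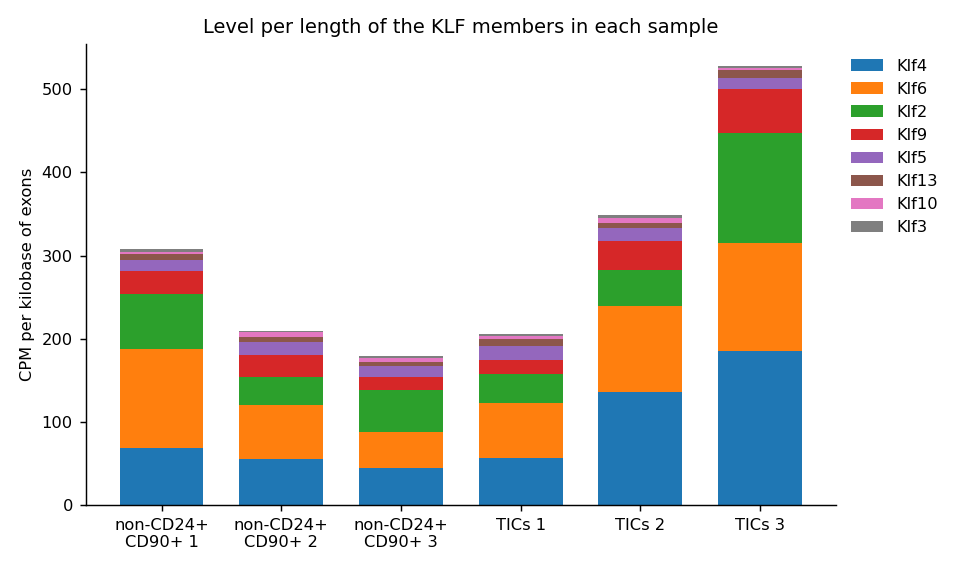
Stacked levels per length of the 8 KLF members in each sample, in TMM-normalized CPM per kilobase of exons (vertical axis). Klf4, at the bottom of each bar, is the largest part in TIC replicates 2 and 3, whose sums of 349 and 528 are the highest, while TIC replicate 1 at 206 lies close to control replicate 2 at 209.

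The genes whose pattern over the 6 samples was most like that of Klf4 were found by the root mean square difference of log2 CPM after centring each gene on its mean, among 8754 genes with a mean of at least 10 CPM. The 5 nearest genes were Sfr1 (0.114), Plvap (0.161), Abraxas1 (0.165), Adamts1 (0.175) and Tcf4 (0.177). Plvap, a component of the diaphragms of fenestrated endothelium, had 185, 155 and 96.4 CPM in control tumor cells and 140, 289 and 493 CPM in TICs. Adamts1, an extracellular protease, had 95.7, 80.1 and 67.1 CPM in control tumor cells and 65.9, 174 and 314 CPM in TICs. In both genes TIC replicate 1 lay within or below the range of the other group, and TIC replicates 2 and 3 were the highest samples, as for Klf4. None of these 5 genes was called by exactTest on all 6 samples, and the adjusted p-value of Tcf4, an E-protein transcription factor, was the lowest at 0.115. Tcf4 was called in DESeq2 (0.012), with at least 10 counts in every sample (0.047) and without TIC replicate 1 (0.00016). Without TIC replicate 1, Sfr1 (0.017), Plvap (0.012) and Adamts1 (0.0024) were called by exactTest as well. Among the members, Klf9 was nearest to Klf4 (0.317, rank 52), followed by Klf6 (0.440, rank 221), and Klf5 (0.787, rank 2542) and Klf10 (1.07, rank 5632) were the most distant. These distances are descriptions over 6 samples, which all genes share.

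The rest of the KLF and SP family comprised 18 genes, of which 7 passed the filter and 0 were called. Their median log2 fold change was 0.31, with 4 of 7 above 0. In exactTest 2 of 7, Klf11 and Sp3, had an unadjusted p-value below 0.05, compared with 7.85% of all genes. Klf11, a TGF-beta-inducible relative of Klf10, had 360, 66 and 144 counts in control tumor cells and 57, 68 and 8 counts in TICs. Its log2 fold change was -2.40 ± 1.0 (SE, adjusted p = 0.481), and replicate 2 of the control tumor cells lay among the TIC samples. Without control replicate 1, the sample with 360 counts, it was -1.45. Sp3, a ubiquitous GC-box factor that competes with Sp1, had 132, 184 and 174 CPM in control tumor cells and 116, 99.3 and 59.9 CPM in TICs. All TIC samples were below the others for Sp3, but its log2 fold change of -0.83 did not pass the threshold ± 0.34 (SE, adjusted p = 0.381). Its exons overlap the antisense transcript Sp3os, which had 1032 counts in all samples together, so that reads of the pair may not be told apart.

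Sp1, the founding member of the GC-box factors, had a log2 fold change of 0.37 ± 0.45 (SE), Klf7 of 0.31 (0.44) and Sp2 of -0.31 (0.84). Exons of Sp2 overlap those of D030028A08Rik on the opposite strand, which had 1467 counts over all samples. Klf16 and Sp8 were near the filter, with at most 61 and 21 counts in a sample and log2 fold changes of 1.13 ± 1.80 (SE) and 0.98 ± 1.61 (SE). Every TIC sample was above every other sample for Sp8, with 21, 20 and 13 counts compared with 9, 4 and 10. No counts were found in any sample for 8 genes: the erythroid factor Klf1, Klf8, Klf12, Klf17, Sp5, Sp6, the osteoblast factor Sp7, and Sp9. This leaves levels below the 0.33 to 0.44 CPM that 3 counts represent undetermined. Klf14, Klf15 and Sp4 had counts in 2 samples each and did not pass the filter.

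Regulators known to act around the KLFs were mostly without calls. The 10 cofactors that KLF proteins recruit, such as CtBP and SIN3A, had 0 calls and a median log2 fold change of -0.14, with 4 of 10 above 0. The 7 ubiquitin ligases described for KLF proteins had 0 calls and a median of -0.59, with 3 of 7 above 0. The 6 glucocorticoid receptor genes and targets, among which Klf9 would belong, had 0 calls, a median of -0.03 and 2 of 6 above 0. These lists and the lists below are to be read against the 1.55% of genes called and the median of -0.01 over all genes.

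In the ERK5 and MEF2 pathway, which is known to induce Klf2 and Klf4 in endothelium, 6 of 7 genes passed the filter and 1 was called higher in TICs. The called gene was Mef2c, a MEF2 transcription factor, with 26.7, 16.9 and 14.3 CPM in control tumor cells and 73.5, 76.9 and 72.0 CPM in TICs. Mef2c was higher in every TIC sample, including replicate 1, in which Klf4 and Klf2 were not above the range of the other group. Its log2 fold change was 1.94 ± 0.47 (SE, adjusted p = 0.012), and the call was lost in the quasi-likelihood test (adjusted p = 0.12), without control replicate 2 (0.15) and without replicate 3 (0.14). The median log2 fold change of the 6 genes was -0.23, with 2 of 6 above 0. Mef2d, a related and more abundant MEF2 factor, was lower in every TIC sample, at 99.0 ± 22.8 CPM in control tumor cells and 49.6 ± 20.7 CPM in TICs (SD, n = 3), and was not called (adjusted p = 0.37). Mapk7, which encodes ERK5 itself, did not pass the filter, with 2 counts in TIC replicate 2 and 0 in the other samples.

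Of 12 genes known as targets of KLF factors, 11 passed the filter, 1 was called higher (1.36% of all genes) and 0 lower (0.189%). Their median log2 fold change was 0.19, with 7 of 11 above 0. The called gene was Thbd, which encodes thrombomodulin, the endothelial anticoagulant receptor known to be induced by KLF2 and KLF4. Thbd had 24.5, 26.9 and 13.7 CPM in control tumor cells and 68.3, 121 and 138 CPM in TICs. All TIC samples were above the others, with a log2 fold change of 2.33 ± 0.44 (SE, adjusted p = 0.00047), and Thbd was called under each of the 13 alternatives tried. Nos3, the endothelial nitric oxide synthase and another classical target, had no count in any sample. Every TIC sample was above every other sample for 2 of the 11 targets (7.69% of all genes), Thbd and Cdkn1a. For 1, Cdh1, every TIC sample was below (7.55%). In exactTest Cdkn1a had a log2 fold change of 0.77 (adjusted p = 0.46) and Cdh1 of -0.71 (adjusted p = 0.30).

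Of the cell type lists, the endothelial, fibroblast and pericyte sums had the same order among the 3 TIC samples as Klf4. The adipocyte sum had it too, but nearly all of it was Fabp4, a gene also known from capillary endothelium. The leukocyte sum had the opposite order. The KLF cofactor and ubiquitin ligase sums, which mark no cell type, had the order of Klf4 too, but over a narrower range. The KLF target sum had it as well, but that list includes endothelial genes such as Thbd. Relative to the control mean, the cofactor sum was 0.857, 0.906 and 1.01 in TIC replicates 1 to 3. The ligase sum was 0.667, 0.719 and 0.862. The order of the 3 samples was not tested. Klf2 was below the control mean in TIC replicate 2, where the endothelial, fibroblast and pericyte sums were high. In bulk samples, fewer cells of a type and less RNA per cell cannot be told apart. All 11 endothelial markers passed the filter, 11 of 11 had a log2 fold change above 0 with a median of 1.17, and 1 was called, Ptprb (log2 fold change 1.95, adjusted p = 0.083). Without TIC replicate 2 or 3, as with 5 of the other alternatives, Ptprb was no longer called, and without control replicate 1 its log2 fold change was 2.88 (1.36 without TIC replicate 3). The summed level of the 11 endothelial markers was 271, 257 and 220 CPM in control tumor cells and 305, 554 and 1144 CPM in TICs. Relative to the mean of the control tumor cells, the sum was 1.22, 2.23 and 4.59 in TIC replicates 1 to 3, compared with 1.02, 2.42 and 3.29 for Klf4 and 0.691, 0.863 and 2.63 for Klf2. The 3 defining markers were present in all 6 samples, and their lowest levels were 18.8 CPM for Pecam1, 6.04 CPM for Cdh5 and 22.2 CPM for Kdr. The part of endothelial cells in the levels of Klf4 and Klf2 was not tested.

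The summed stromal markers were higher in all 3 TIC samples, including replicate 1. Calls in the cell type lists are to be read against the 1.36% of all genes called higher in TICs. Of 9 fibroblast markers 8 passed the filter and 5 were called higher, led by Col1a2 (log2 fold change 2.01, adjusted p = 2.37e-09), Col1a1 (1.54, 0.00012), Col3a1 (1.66, 0.00066) and Dpt (1.54, 0.0077, not called without control replicate 3), with a median log2 fold change of 1.51 over the 8. Their sum ranged from 2791 to 3180 CPM in control tumor cells and from 7466 to 10826 CPM in TICs, and Pdgfra was detected in every sample. In TIC replicate 1 the fibroblast sum was 2.45 times the mean of the other group while Klf4 was at 1.02 times. Of 9 pericyte and smooth muscle markers 9 passed and 1 was called higher, Rgs5 (log2 fold change 1.45, adjusted p = 0.00047), and their median was 0.96. Their sum ranged from 540 to 665 CPM in control tumor cells and from 950 to 1452 CPM in TICs, with Pdgfrb and Cspg4 detected in every sample. The part of these cells in the KLF levels was not tested.

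The epithelial lists showed no call. Of 10 luminal markers 10 passed, 0 were called, and 2 of 10 had a log2 fold change above 0, with a median of -0.39. Their sum was 8132 to 9479 CPM in control tumor cells and 5372 to 7826 CPM in TICs, the lowest being TIC replicate 3. Epcam, Krt8 and Krt18 were lower in every TIC sample, with log2 fold changes of -0.34, -0.53 and -0.69 and adjusted p-values of 0.96, 0.69 and 0.30 in exactTest. Of 6 basal markers, which include Krt5, Krt14 and Krt17, 0 were called and the median was 0.07, with sums of 797 to 1322 CPM in control tumor cells and 638 to 1034 CPM in TICs. Klf5 was lowest in TIC replicate 3, which had the lowest luminal sum, and it was above every control sample in TIC replicates 1 and 2, whose luminal sums of 7308 and 7826 CPM were also below those of all control samples.

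Leukocyte and fat cell markers were mostly at or near 0. Of 10 leukocyte markers 3 passed the filter, of which 1 had a log2 fold change above 0, with a median of -0.31. Cd3e had no count in any sample. The marker above 0 was the macrophage lysozyme Lyz2, which was called (log2 fold change 2.68, adjusted p = 0.012). Its call was lost in the quasi-likelihood test, without TIC replicate 2 and without control replicate 3. The leukocyte sum ranged from 16.7 to 35.6 CPM in control tumor cells and from 33.9 to 90.1 CPM in TICs, with the lowest TIC value in replicate 3, where Klf4 was highest. Of 6 adipocyte markers only Fabp4 passed the filter, and Adipoq, Plin1 and Lep had no count in any sample. Fabp4, a fatty acid binding protein of adipocytes and of capillary endothelium, had 137, 91.3 and 56.5 CPM in control tumor cells and 192, 494 and 1229 CPM in TICs, a log2 fold change of 2.75 (adjusted p = 0.00047), which was 1.88 without TIC replicate 3. Its order among the TIC samples was that of Klf4.

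Several KLF genes, among them Klf2, Klf4, Klf6 and Klf10, are known to be induced quickly when tissue is dissociated. Of 22 immediate early and dissociation genes such as Fos, Jun and Egr1, 22 passed the filter, 0 were called, and 9 had a log2 fold change above 0, with a median of -0.09. Their summed level was 6962 to 10670 CPM in control tumor cells and 5589 to 8071 CPM in TICs. Relative to the mean of the control tumor cells it was 0.651, 0.931 and 0.941 in TIC replicates 1 to 3, below 1 in all of them, and 1.24 in control replicate 1, in which Klf6 was high. Within each group the sample order of this sum was that of Klf4, which relative to the same mean was 1.22, 0.981 and 0.803 in control replicates 1 to 3, where the sum was 1.24, 0.945 and 0.811. Sums of other lists had this order too. The endothelial sum, at 1.09, 1.03 and 0.883 in control replicates 1 to 3, had it in both groups as well. So did the sums of the KLF targets, the KLF cofactors, the other KLF and SP factors and the adipocyte markers, the last being nearly all Fabp4. The part of dissociation in the KLF levels was not tested.

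**Figure D5:**
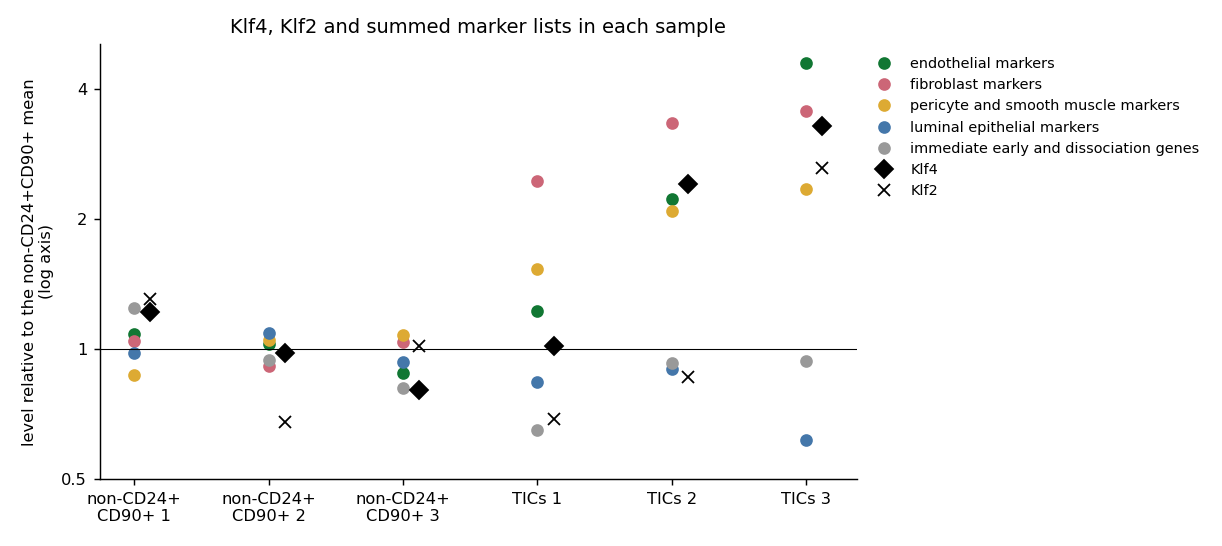
Levels of Klf4 (diamonds), Klf2 (crosses) and the summed marker lists (colored circles) in each sample, relative to the mean of the 3 control samples (log axis). In TICs the endothelial sum and Klf4 both go from near 1 in replicate 1 (1.22 and 1.02) to their highest value in replicate 3 (4.59 and 3.29), the fibroblast sum is at 2.45 or more in each, and the immediate early sum is below 1.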

How the data were processed

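RNA of the sorted cells, 120 ng per sample, was sequenced by the authors on an Illumina HiSeq instrument. Per the labels and the study's methods, reads were trimmed with Trimmomatic (version 0.32), aligned to GRCm38 with STAR (version 2.4.0), restricted to uniquely mapped reads with SAMtools (version 1.1) and counted with HTSeq. The authors deposited raw counts per Ensembl gene, without normalization. The annotation release and the strand setting of the counting are not given in the sources used here. Unique mapping can lower the counts of genes with near-identical copies.

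Samples were grouped by their descriptions and numbered 1 to 3 in accession order. Symbols and exon lengths came from GENCODE M21 (40254 of 41388 genes matched). The 12192 genes above 1 CPM in 3 or more samples were normalized by TMM and compared with the exactTest of edgeR (version 4.0.16, R version 4.3.3), the test the study's methods name, with tagwise dispersions, Benjamini-Hochberg adjustment over all genes kept and a threshold of 0.1. Standard errors came from the negative binomial fit with tagwise dispersions, and 95% intervals are 1.96 standard errors on either side. The common dispersion was 0.678. CPM values refer to the total of the genes kept. Alternatives were edgeR's quasi-likelihood test, RLE size factors, DESeq2 (version 1.42.0), no filter, scaling by library size, at least 10 counts in every sample, a threshold of 0.05 and each sample left out in turn. Single ratios and CPM values were compared by exact permutation on the log2 scale. The fits were tested on simulated counts.

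The members and gene lists were chosen with earlier results of these data known, so that their counts and medians are descriptions. Named genes were all members, every KLF or SP factor that passed the filter, at most 4 called genes with the smallest p-values per list, the first 3 markers of each cell type, and the 5 genes nearest to Klf4. Genes outside this rule (Thy1, Cd24a, Mef2d, Mapk7, Nos3, Cdkn1a, Cdh1, Klf14, Klf15, Sp4 and those without counts) were named after their values were seen. One defining marker is not reported here, and protein sequences were not used here.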

Additional observations from a re-analysis of the deposited data

How the results depend on the processing

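All genes called numbered 189 (166 higher in TICs), 50 (49 higher) in the quasi-likelihood test, 306 (231 higher) in DESeq2, 112 without a filter, 116 at an adjusted p-value below 0.05, and 72 (without control replicate 3) to 323 (without TIC replicate 1) with 1 sample left out. Without control replicate 1 or 2 and without TIC replicate 2 there were 87, 90 and 102 calls. The number of KLF members called was 0, and 1 (Klf4) in DESeq2 and with at least 10 counts in every sample, and 0 to 1 with 1 sample left out. Klf4 had a log2 fold change of 1.21 (adjusted p = 0.042) in DESeq2, 1.21 (adjusted p = 0.069) with at least 10 counts in every sample, and 0.80 to 1.53 with 1 sample left out, the latter without TIC replicate 1 (adjusted p = 0.00074). Over its 13 alternatives the adjusted p-value of Klf4 ranged from 0.00074 to 0.68, and its direction did not change. Klf2 ranged from -0.34 (without TIC replicate 3, reversed) to 0.82 with 1 sample left out. Klf10 ranged from -0.49 to 0.15, and it was above 0 without TIC replicate 3 (0.15), without control replicate 2 (0.045) and without control replicate 3 (0.023). Klf7 ranged from -0.064 (without TIC replicate 3, reversed) to 0.59 and Sp2 from -0.55 to 0.28 (without control replicate 3, reversed) with 1 sample left out. Klf3, Klf5, Klf6, Klf9 and Klf13 kept their direction and were not called under any of the 13 alternatives. Klf4 was in place 2 by level per kilobase in control tumor cells and 2 to 3 with 1 sample left out (3 without replicate 2), and in place 1 in TICs throughout. Apart from the smaller number of samples or the changed set of genes tested, the cause of these shifts was not tested. Scaling moved the median of all genes by at most 0.06 on the log2 scale. With a common biological coefficient of variation of 0.82, the depth of Klf10, 71 to 210 counts, gave an interval that covers changes in both directions. No paired analysis was possible because the labels number the samples from 1 to 6 and give no number that both groups share. The groups may share animals, as the total number of mice given in the paper would allow, but the paper does not say so outright. A dependence between the groups was not modelled, and the tests used here would ignore such a pairing.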
